A study of Homo sapiens with 4 samples.

Results

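Ribosome biogenesis and RNA polymerase I genes were examined as a set of 37 named genes, of which 34 could be read from a probe set carrying a single gene symbol, among 18417 such genes in all. NOP56, GNL3 and PPAN had no such probe set and carry no value below. The arrays came from HOS and U2-OS, both established human osteosarcoma lines, grown without OGE (0 μg/mL) or with 600 μg/mL OGE for 24 h. What OGE stands for is not spelled out in the labels. There was 1 array for each of the 4 combinations, so no value has a replicate within a line. Both lines are tumour lines in culture, and each stands for a single source of cells.

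Ribosomes are built in the nucleolus. RNA polymerase I transcribes the precursor of the large ribosomal RNAs, small nucleolar ribonucleoproteins (snoRNPs) modify it, and separate sets of assembly factors fold and trim it into the small and large subunits. The pathway uses much of a growing cell's energy, and the transcription factor MYC is known as an activator of many of its genes.

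Levels are log2 values made by RMA. That method subtracts background, puts the probe signals of all arrays on a shared distribution and merges the probes of each set into 1 value. The merged values were not exactly on a shared distribution. Quantile normalization, which puts them on it, moved the U2-OS change of NPM1 with OGE from -0.76 to -0.54. Array medians over 33297 probe sets lay between 3.58 and 3.62. In bulk RNA, fewer cells and less RNA per cell cannot be told apart, and a shift common to all genes would not be seen after RMA. With 1 array a group, calls rest on size. A call needed a gap of at least 1 between 2 arrays on the log2 scale, which is 2-fold, with the larger value no lower than its array's median. For each gene a mean level over the 4 arrays was also taken, and the median level is the median of these means over all genes. The osteoblast and mesenchyme markers RUNX2, COL1A1, COL1A2, SPARC, ALPL and VIM all had means at or above the median level. COL1A1 was at 10.01 in HOS and 9.46 in U2-OS without OGE. Of immune, endothelial and epithelial markers, 1 of 5, 0 of 5 and 2 of 6 measured genes reached that level. They were CD68, KRT8 and KRT18. EPCAM, KRT19 and CLDN4 were above the array's median on some arrays but did not reach that level. CD68 was higher with OGE in both lines, by 1.05 and 1.35, and KRT8 was lower in U2-OS than in HOS in both states, with differences of -1.22 and -1.37. The same differences were -4.32 and -3.15 for COL1A2, and with OGE it was lower in HOS, as COL1A1 and SPARC were in U2-OS. The part of these markers in the results below was not tested.

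With OGE, U2-OS had higher levels of a group of assembly factors, NOP16, RRP12, NOB1, NOP2, BYSL, RRP9 and PES1, while DDX10 and RRN3 were lower. In HOS, none of these 9 genes passed the size threshold, and RRS1 alone was lower. By size, 7 of 34 members (20.6%) were higher in U2-OS, against 2.94% of the 11506 genes at the floor, and 2 of 34 (5.88%) were lower, against 7.88%. In HOS, 0 of 34 were higher, against 1.70% of 11333 genes, and 1 of 34 (2.94%) was lower, against 2.18%. The counts of lower members were close to the background in both lines. No member was called in both lines, where 0.768% of all genes were higher and 1.09% lower. The median change over the 34 members was -0.12 in HOS and 0.09 in U2-OS, against 0.02 and 0.03 over all genes. The set as a whole was therefore near the middle of all genes in both lines, with members spread from -1.19 to 0.66 in HOS and from -1.34 to 1.81 in U2-OS.

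**Figure D1:**
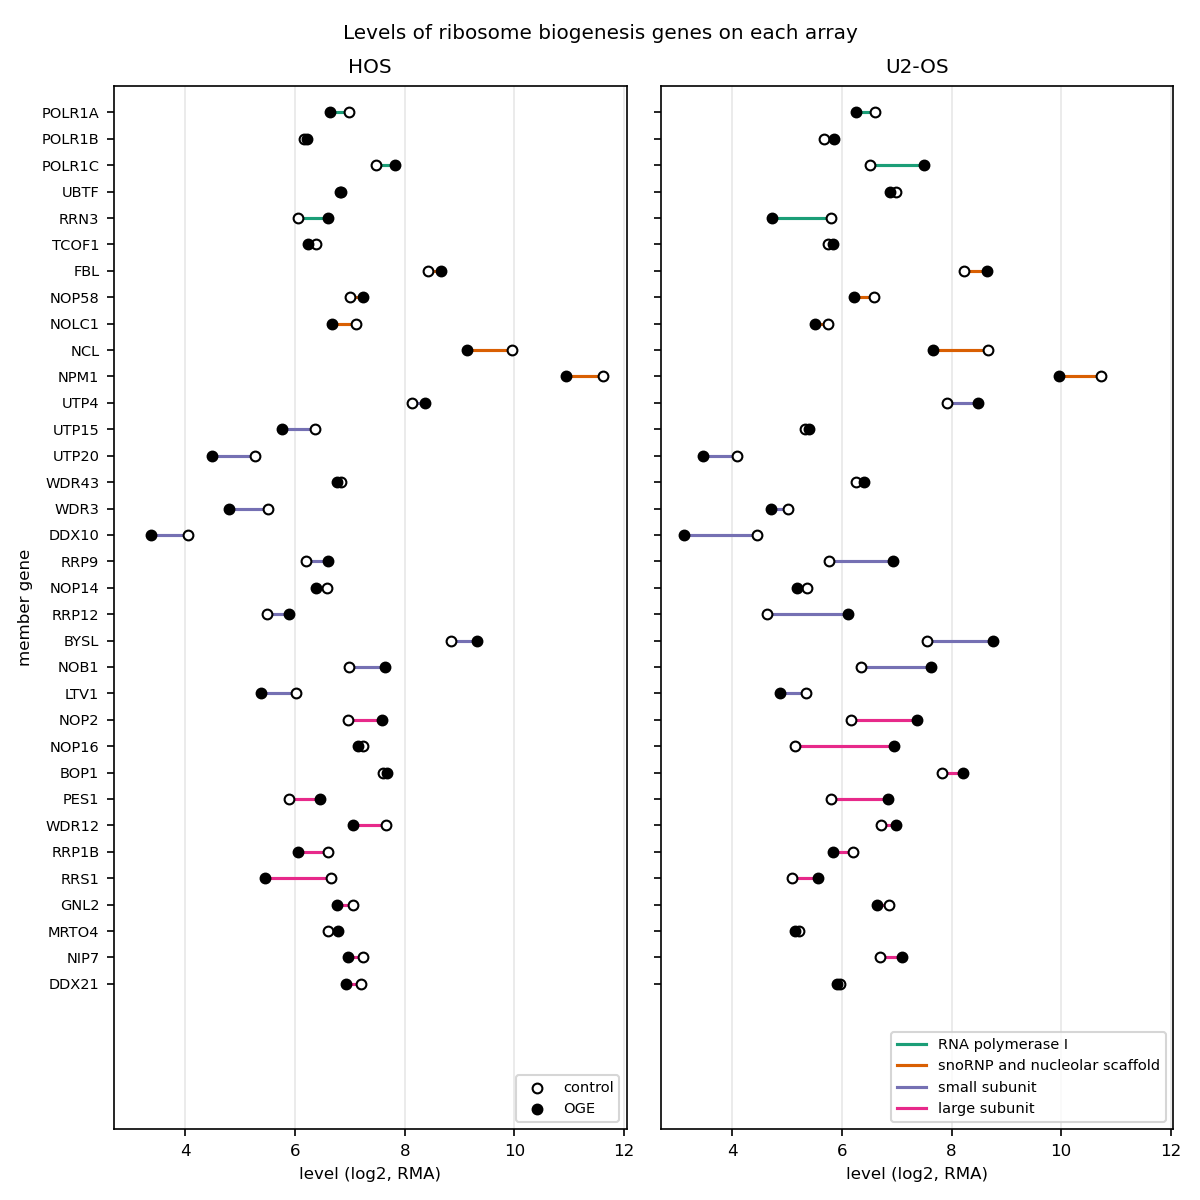
Level (log2, RMA) of each of the 34 measured members in HOS (left) and U2-OS (right). Open circles are control arrays, filled circles OGE arrays, and the joining line is coloured by the role of the gene. The longest lines to the right are those of NOP16 and RRP12 in U2-OS, with changes of 1.81 and 1.49.

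The sign of the change was the same in the lines for 24 of 34 members, 11 positive and 13 negative, and opposite for 10. Across the 34 members the changes in HOS and U2-OS correlated at r = 0.58 (Spearman's rho 0.62), and over the 9209 genes whose mean level reached the median at r = 0.57 (rho 0.53). These values describe the spread across genes, which share arrays and are not independent replicates. With the lines as repeats, limma called 0 of 34 members for OGE at an adjusted p under 0.05, and 0 of all 18417 genes (0%). The smallest adjusted p among members in limma was 0.228, for NCL. At an unadjusted p under 0.05, limma had 12 of 34 members (35.3%) against 14.2% of all genes. Dim genes weigh on that 14.2%, as 33 of the 34 members were at or above the median level. Of the 9209 genes at or above it, limma had 2063, a share between 14.2% and 35.3%. The fit has 1 residual degree of freedom, which is how far the change in HOS and that in U2-OS differ. Separate cultures are not mentioned in the labels. The p-values reflect no more than this spread among these 4 arrays, which may be technical or a difference in response between the lines.

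**Figure D2:**
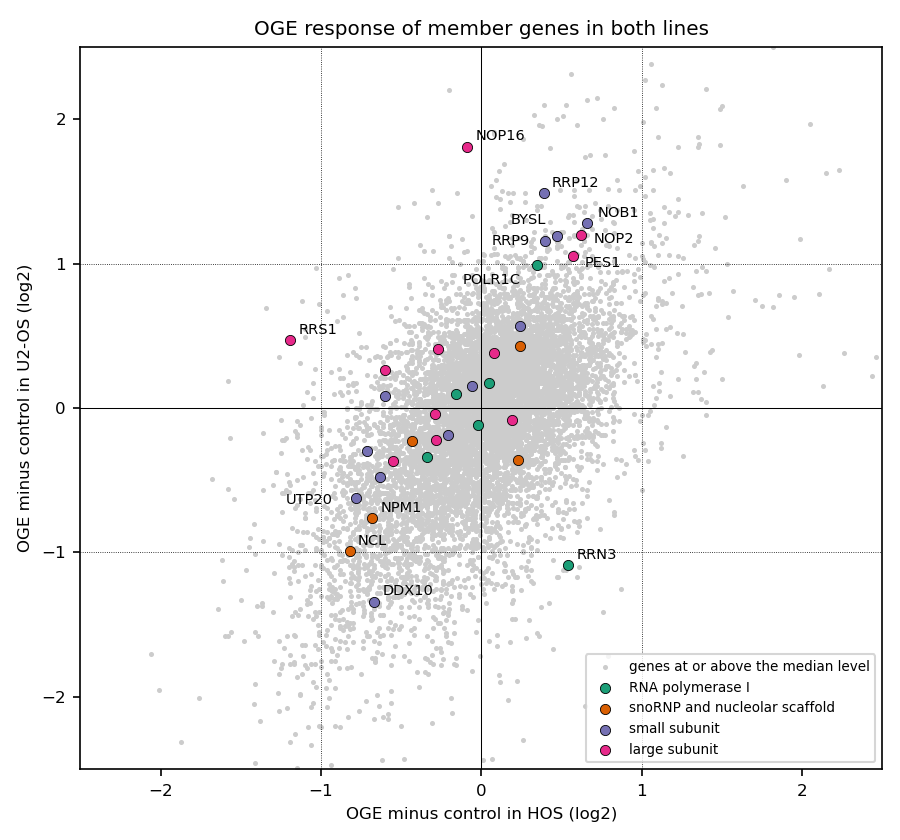
Change with OGE in HOS (x axis) against that in U2-OS (y axis), both log2. Coloured points are the 34 members by role, grey points are genes at or above the median level within the axis limits, and dotted lines mark a change of 1. Of the members, 7 lie above the upper dotted line and RRN3 and DDX10 lie below the lower one.

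Among the RNA polymerase I genes, OGE went with a lower level of RRN3 in U2-OS and with little change of the large catalytic subunits. RRN3, the initiation factor that brings the polymerase to the ribosomal DNA promoter, was at 6.06 without OGE and 6.60 with it in HOS, and at 5.81 and 4.72 in U2-OS. The U2-OS array with OGE was the lowest of the 4, and the changes of 0.54 and -1.09 had opposite signs. RRN3 has near-identical pseudogenes, so this value is uncertain. The annotation assigns 3 further probe sets jointly to RRN3 and those pseudogenes, and their changes lay between 0.33 and 0.34 in HOS and between -0.01 and 0.67 in U2-OS, without the lower level seen above. POLR1C, a subunit shared by RNA polymerases I and III, was at 7.48 and 7.83 in HOS and 6.51 and 7.50 in U2-OS. Its change in U2-OS, 0.99, was just under the size threshold, and it was 1.07 after quantile normalization. POLR1A, the largest subunit, was at 6.98 and 6.64 in HOS and 6.60 and 6.26 in U2-OS, a change of -0.34 in each line. The subunit POLR1B, the promoter factor UBTF and TCOF1, the nucleolar protein called treacle, had changes between -0.16 and 0.17 in either line. The 6 genes had a median change of 0.02 in HOS and -0.01 in U2-OS.

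The abundant nucleolar proteins nucleolin and nucleophosmin had lower values with OGE in both lines without passing 2-fold. NCL, encoding nucleolin, which binds ribosomal RNA precursors, was at 9.95 and 9.13 in HOS and 8.66 and 7.67 in U2-OS, a mean change of -0.91 ± 0.12 (SD, n = 2 lines). Both OGE arrays were below the control array of their line, and the U2-OS arrays were below both HOS arrays. NPM1, the histone chaperone nucleophosmin, was at 11.62 and 10.94 in HOS and 10.72 and 9.96 in U2-OS, a mean change of -0.72 ± 0.06 (SD, n = 2 lines). It has 4 probe sets and known pseudogenes. The 3 bright ones had changes from -0.68 to -0.66 in HOS and from -0.84 to -0.76 in U2-OS, and the dim one, at 2.84 in HOS without OGE, had 0.73 and -0.69. The U2-OS change of NPM1 was smaller after other normalizations, at -0.54 (quantile) and -0.55 (cyclic loess). With limma, the adjusted p for OGE was 0.228 for NCL and 0.246 for NPM1.

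Proteins of the box C/D snoRNPs, which guide methylation of the precursor, had smaller changes. FBL, fibrillarin, the methyltransferase of these particles, was at 8.42 and 8.66 in HOS and 8.22 and 8.65 in U2-OS, so both OGE arrays were slightly above their controls. NOP58, a core protein of the same particle, had changes of 0.23 and -0.36. NOLC1, a scaffold protein that links nucleolus and Cajal bodies, was at 7.11 and 6.68 in HOS and 5.74 and 5.51 in U2-OS, where both U2-OS arrays were below both HOS arrays.

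Of the 12 small-subunit genes, RRP12, NOB1, BYSL and RRP9 were higher by size in U2-OS, and DDX10 was lower. RRP12, an export and maturation factor of the small-subunit precursor, was at 5.49 and 5.88 in HOS and 4.63 and 6.12 in U2-OS. The U2-OS control was the lowest array and the U2-OS array with OGE the highest, a change of 1.49 or 2.81-fold, against 0.39 in HOS. NOB1, the endonuclease that makes the last cut in the RNA of the small subunit, was at 6.98 and 7.64 in HOS and 6.35 and 7.63 in U2-OS. The OGE arrays were higher by 0.66 and 1.28, a mean of 0.97 ± 0.44 (SD, n = 2 lines), with an adjusted p of 0.245 in limma. BYSL, bystin, a small-subunit assembly factor, was at 8.85 and 9.32 in HOS and 7.56 and 8.75 in U2-OS. Both OGE arrays were above their controls, by 0.47 and 1.19. RRP9, a protein of the U3 snoRNP, was at 6.20 and 6.60 in HOS and 5.77 and 6.93 in U2-OS, and the U2-OS array with OGE was the highest of the 4.

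Other small-subunit genes had lower values with OGE. DDX10, an RNA helicase, was at 4.05 and 3.38 in HOS and 4.46 and 3.12 in U2-OS, changes of -0.67 and -1.34. With OGE it was below the median of both arrays. UTP20, a scaffold of the small-subunit processome, was at 5.27 and 4.49 in HOS and 4.09 and 3.47 in U2-OS, a mean change of -0.70 ± 0.11 (SD, n = 2 lines). WDR3, another processome protein, was at 5.50 and 4.79 in HOS and 5.01 and 4.71 in U2-OS. LTV1, which takes part in late steps of small-subunit assembly, was at 6.01 and 5.38 in HOS and 5.35 and 4.87 in U2-OS, with both OGE arrays below their controls. NOP14, a processome protein, was at 6.59 and 6.38 in HOS and 5.37 and 5.18 in U2-OS, so its arrays parted by line more than by OGE. The remaining members of the group, UTP4, UTP15 and WDR43, had changes between -0.60 and 0.57. The group's median was -0.14 in HOS and 0.12 in U2-OS.

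Of the 11 measured large-subunit genes, NOP16, NOP2 and PES1 were higher by size in U2-OS, and RRS1 was lower in HOS. NOP16, a nucleolar factor of large-subunit assembly, was at 7.24 and 7.15 in HOS and 5.14 and 6.95 in U2-OS. The U2-OS control stood apart from the other 3 arrays, which lay between 6.95 and 7.24, and the change in U2-OS was 3.51-fold. NOP2, a methyltransferase of large-subunit RNA, was at 6.97 and 7.59 in HOS and 6.17 and 7.37 in U2-OS, changes of 0.62 and 1.20. PES1, pescadillo, which forms a complex with BOP1 and WDR12, was at 5.88 and 6.45 in HOS and 5.80 and 6.85 in U2-OS, and both OGE arrays were above both controls. Its partners did not pass the threshold, with BOP1 changes of 0.08 and 0.38 and WDR12 changes of -0.60 and 0.26. RRS1, which helps to build the 5S RNA into the large-subunit precursor, was at 6.65 and 5.46 in HOS and 5.10 and 5.57 in U2-OS. The HOS control was the highest of the 4 arrays, and the changes of -1.19 and 0.47 had opposite signs.

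MRTO4, a factor of the ribosomal stalk, was at 6.60 and 6.79 in HOS and 5.22 and 5.14 in U2-OS, and DDX21, a nucleolar RNA helicase, at 7.21 and 6.92 in HOS and 5.96 and 5.92 in U2-OS. In both genes the lines parted and OGE and control arrays differed by 0.29 at most. RRP1B was at 6.60 and 6.05 in HOS and 6.20 and 5.83 in U2-OS. GNL2, a nucleolar GTPase, was at 7.05 and 6.77 in HOS and 6.86 and 6.64 in U2-OS. NIP7 had changes of -0.27 and 0.41. The median over the 11 genes was -0.27 in HOS and 0.38 in U2-OS. The 10 members whose arrays are not given one by one had changes between -0.60 and 0.24 in HOS and between -0.36 and 0.57 in U2-OS.

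Between the lines, U2-OS had lower levels of most of these genes than HOS, and for most of them the gap was smaller with OGE. Without OGE, 31 of 34 members (91.2%) were lower in U2-OS, against 52.4% of all genes, and 10 of 34 (29.4%) were lower by size, against 5.64% of 11605 genes, while 0 were higher, against 8.26%. The 10 were NOP16, RRS1, MRTO4, NOLC1, NCL, BYSL, DDX21, NOP14, UTP20 and UTP15. With OGE, 26 of 34 (76.5%) were lower and 8 of 34 (23.5%) were lower by size, against 6.24% of 11492 genes, with 0 higher, against 4.89%. The 8 were RRN3, MRTO4, NCL, NOP14, NOLC1, UTP20, NOP58 and DDX21. The members' median difference was -0.64 without OGE and -0.29 with it, against -0.03 and -0.01 over all genes. The absolute gap between the lines was smaller with OGE for 26 of 34 members (76.5%), against 52.3% of all genes. By role, it was smaller for 12 of 12 small-subunit, 8 of 11 large-subunit and 4 of 6 polymerase I members. Of FBL, NOP58, NOLC1, NCL and NPM1 it was smaller for 2 of 5, and their median difference was -0.90 without OGE and -1.01 with it. These comparisons use the same arrays as the OGE responses and are not separate evidence of them.

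Lower by size in U2-OS in both states were 6 of 34 members (17.6%), against 3.17% of 11069 genes. They were MRTO4 (-1.38 without OGE and -1.65 with it), NCL (-1.29 and -1.46), NOLC1 (-1.37 and -1.17), NOP14 (-1.22 and -1.20), DDX21 (-1.25 and, at the threshold, -1) and UTP20 (-1.18 and -1.02). No member was higher in both states, against 3% of genes. After quantile normalization the difference with OGE was -0.93 for DDX21 and -0.99 for UTP20, under the threshold. With the treatment states as repeats, limma called 2 of 34 members, MRTO4 (adjusted p 0.0434) and NCL (adjusted p 0.0465), both lower in U2-OS. Of all genes it called 1.92%, with 0.885% higher and 1.04% lower in U2-OS. Without OGE as a term in limma the smallest adjusted p was 0.0524 and no member was called, with 131 of all genes called. After quantile normalization limma called 7 members and 1763 of all genes, against 354 before it. At an unadjusted p under 0.05, limma had 13 of 34 members (38.2%), against 20.7% of all genes.

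**Figure D3:**
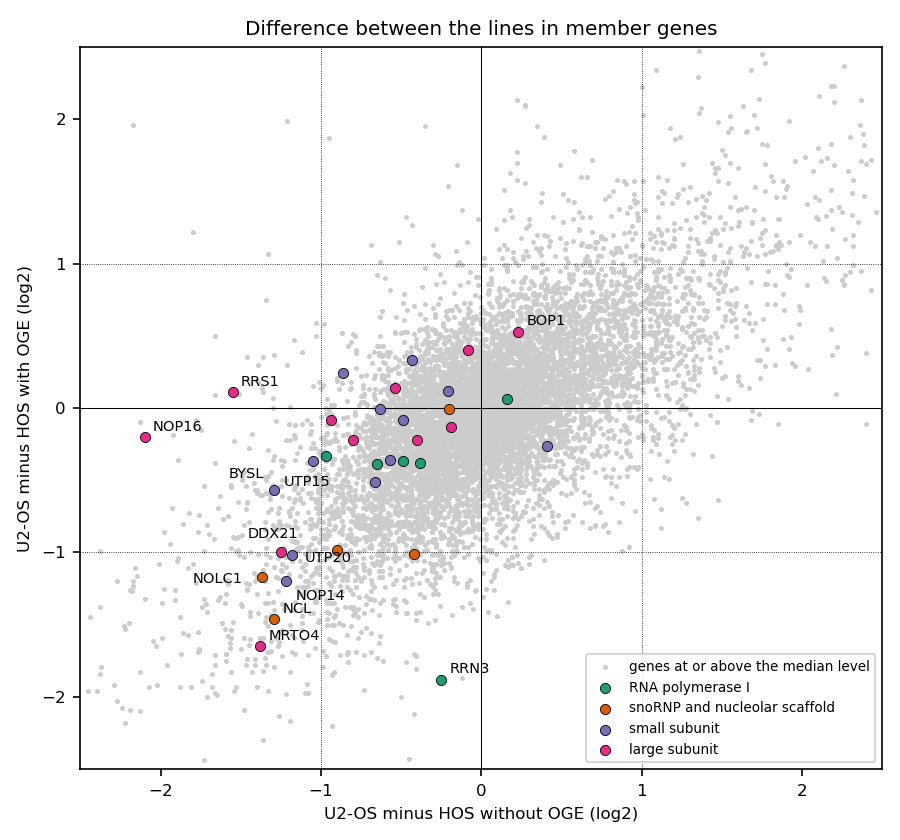
U2-OS minus HOS without OGE (x axis) against the same difference with OGE (y axis), both log2. Coloured points are the 34 members by role, grey points are genes at or above the median level within the axis limits, and dotted lines mark a difference of 1. The 6 members at the lower left are below -1 or at it in both states, while NOP16 and RRS1, at -2.10 and -1.55 without OGE, are at -0.20 and 0.11 with it.

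Of the members lower by size without OGE, NOP16, RRS1, BYSL and UTP15 were not so with OGE. The difference was -2.10 without OGE and -0.20 with it for NOP16, -1.55 and 0.11 for RRS1, -1.29 and -0.57 for BYSL, and -1.05 and -0.37 for UTP15. For BYSL it was -0.38 with OGE after quantile normalization. RRN3 had -0.25 without OGE and -1.88 with it, but its 3 joint probe sets had -0.77 and -0.47, -0.53 and -0.88, and -0.77 and -0.44, so the wider gap was seen in 1 of them. BOP1 was higher in U2-OS in both states, by 0.23 and 0.53, and its second probe set gave 0.23 and 0.38. UBTF was also higher in U2-OS in both states, by 0.16 and 0.06.

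Of 140 other listed genes of the pathway, 134 were measured, and few passed the size threshold with OGE. In U2-OS, 3 of them (2.24%) were higher and 3 (2.24%) lower, against 2.94% and 7.88% of all genes at the floor. In HOS, 0 were higher and 3 (2.24%) lower, against 1.70% and 2.18%. None was called in both lines. Over the 134 genes the changes had medians of -0.09 (HOS) and 0.14 (U2-OS). In the small-subunit processome, BMS1, a GTPase, had changes of -0.81 and -1.21, UTP3 of -0.73 and -0.95, WDR75 of -0.72 and -0.79, and the helicase DDX49 of 0.61 and 0.95. Among large-subunit factors, EIF6, which keeps free subunits apart, had changes of 0.57 and 0.87, REXO4 of 0.94 and 0.64, RPF1 of -1.05 and -0.45 and SBDS, which helps to release EIF6, of -1.24 and -0.22.

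Genes for trimming of the precursor had medians of -0.12 and -0.28. MTREX, the helicase that feeds RNA to the nuclear exosome, had changes of -0.72 and -1.55, the exonuclease XRN2 of -0.30 and -1.10, C1D of -0.39 and -0.90 and the exosome subunit EXOSC5 of 0.42 and 0.92. Of snoRNP genes, DKC1, the pseudouridine synthase dyskerin, had changes of -0.38 and -0.31, ZNHIT6 of -0.30 and -0.54, TGS1 of -0.04 and -0.61 and PIH1D1 of 0.51 and 0.11. Of other polymerase I genes, POLR1H had changes of -0.27 and 1.42, POLR1D of 0.42 and 0.51, and the shared subunits POLR2H and POLR2K of 0.63 and 0.53 and of -0.64 and -0.34. With limma, the OGE term called none of the 134. Their lowest adjusted p in limma was 0.228, and 25 (18.7%) had an unadjusted p under 0.05, against 14.2% of all genes. Of the 134, 123 were at or above the median level. Among the 9209 genes at or above it, 2063 had such a p in limma, a larger share than 18.7%.

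Without OGE, 106 of these 134 genes (79.1%) had a negative U2-OS minus HOS difference, against 52.4% of all genes. The median was -0.43. By size, 21 (15.7%) were lower and 1 (0.746%) higher, against 5.64% and 8.26%. With OGE the median was -0.29, and 11 (8.21%) were lower and 2 (1.49%) higher by size, against 6.24% and 4.89%. In both states, 6 (4.48%) were lower by size, against 3.17%, and 0 higher. The line term of limma called 5 of the 134 (3.73%), against 1.92% of all genes. The list was written with earlier results of these data known.

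Cytosolic ribosomal protein genes, whose products are assembled by these factors, had median changes of 0.12 in HOS and 0.26 in U2-OS over 58 measured genes. The list holds 79 genes. By size, 1 of 58 was higher in HOS and 2 of 58 in U2-OS, against 1.70% and 2.94% of all genes at the floor. None was lower, against 2.18% and 7.88%, and none was called in both lines, against 0.768% higher and 1.09% lower. RPL13 had changes of 0.55 and 0.94, RPL10 of 1.37 and 0.06, RPL10A of 0.23 and 1.18 and RPS13 of 0.97 and 0.19. RNA polymerase III genes had medians of -0.02 and 0.06 over 19 genes. BRF2, an initiation factor of that polymerase, was higher by 1.53 and 1.00, POLR3C had changes of 0.92 and 0.55, POLR3D of 0.23 and 0.97 and POLR3B of -0.69 and -0.47. RNA polymerase II subunits had medians of 0.37 and -0.03 over 7 genes, with POLR2B at -0.63 and -1.58, POLR2C at 0.45 and 0.76, POLR2I at 0.41 and 0.52 and POLR2G at 0.56 and -0.03. Between the lines, the ribosomal protein genes had a median U2-OS minus HOS difference of -0.385 without OGE and -0.28 with it. Without OGE, 51 of the 58 were negative, against 52.4% of all genes. By size, 7 were lower without OGE and 6 with it, against 5.64% and 6.24%, and 0 were higher, against 8.26% and 4.89%. The medians were -0.14 and -0.18 for RNA polymerase III genes and 0.08 and 0.1 for polymerase II subunits. No difference between these lists and the members was tested.

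**Figure D4:**
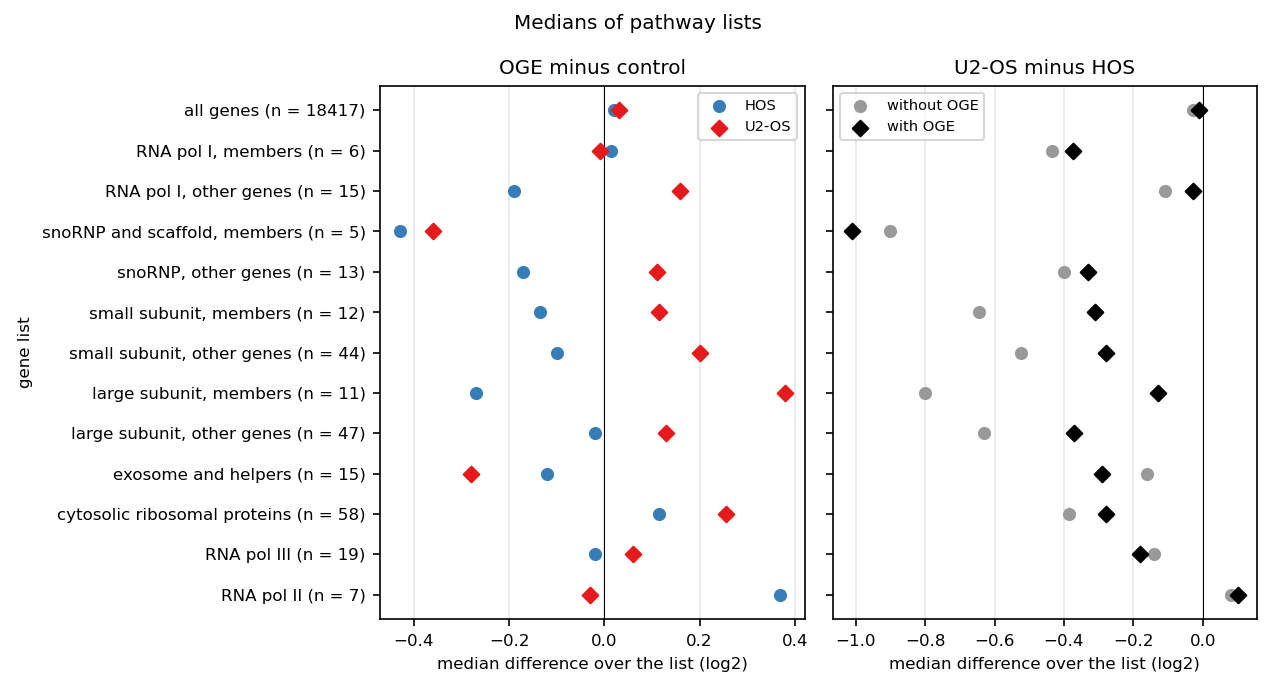
Median difference (log2) over each gene list for OGE minus control in HOS and U2-OS (left) and for U2-OS minus HOS without and with OGE (right). n is the number of measured genes. The large-subunit members lie at -0.27 in HOS and 0.38 in U2-OS, and the members' line differences without OGE lie to the left of those of RNA polymerases II and III.

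Among regulators of the pathway, MYC was at 4.13 and 5.13 in HOS and 5.83 and 8.88 in U2-OS, the highest array by far being U2-OS with OGE. MXD1, a repressor that competes with MYC for the partner protein MAX, was at 4.53 and 6.45 in HOS and 4.19 and 6.98 in U2-OS. DDIT4, an inhibitor of mTORC1, a kinase complex that promotes ribosome synthesis, was at 5.19 and 7.20 in HOS and 5.52 and 10.41 in U2-OS. Of 13 listed regulators, 12 were measured, and these 3 were higher by size in both lines, against 0.768% of all genes. Apart from MYC, regulators were named here only if called in both lines. The HOS change of MYC, 1.00, was at the threshold. An activator and opposing genes were thus higher on the same arrays. Between the lines, MYC was higher in U2-OS, by 1.70 without OGE and 3.75 with it. The same differences were -0.34 and 0.53 for MXD1 and 0.33 and 3.21 for DDIT4. Of the 34 members, 31 without OGE and 26 with it were lower in U2-OS. Any part of these regulators in the members' values was not tested.

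MYC and MAX bind the E-box CACGTG, so the promoters of the members were searched for it. RefSeq windows of 300 bases, from 250 before to 50 after an annotated start (GRCh38.p14), were at hand for 30 of the 37 members. CACGTG, which reads the same on both strands, was present in a window of 14 of these 30 (46.7%), against 10.9% of 15842 protein-coding genes and 7.26% of all 35116 windows. The ETS-type motif CCGGAAG was in 12 of 30 (40%), against 16.5% of protein-coding genes. The GC box GGGCGG was in 22 of 30 (73.3%), against 64.3%, and TATAAA in 2 of 30 (6.67%), against 12.4%. Both strands were searched, the motifs do not contain each other, and windows of a gene with several starts were pooled. A match is a description of these letters and not a binding site.

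Stretches around the E-box are shown for the 4 members higher in U2-OS with OGE that hold it and the 4 lower in U2-OS in both states that hold it, with CACGTG in capitals, 5′ to 3′ on the gene's strand.
BYSL: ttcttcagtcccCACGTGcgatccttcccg
NOP2: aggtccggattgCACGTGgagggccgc
PES1: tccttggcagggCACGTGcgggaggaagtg
RRP9: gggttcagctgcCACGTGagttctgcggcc
MRTO4: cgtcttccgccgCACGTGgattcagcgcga
NOP14: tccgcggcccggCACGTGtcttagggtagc
UTP20: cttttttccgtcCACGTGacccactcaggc
DDX21: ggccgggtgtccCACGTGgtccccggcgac

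The stretches lie at chr6:41921515-41921544 (BYSL, plus strand), chr12:6568242-6568268 (NOP2, minus strand), chr22:30591880-30591909 (PES1, minus strand) and chr3:51941892-51941921 (RRP9, minus strand). Those of the genes lower in U2-OS lie at chr1:19251807-19251836 (MRTO4, plus strand), chr4:2963374-2963403 (NOP14, minus strand), chr12:101280083-101280112 (UTP20, plus strand) and chr10:68956604-68956633 (DDX21, plus strand). The E-box began 28 bases past the annotated start in BYSL, 35 in NOP2, 13 in PES1, 14 in MRTO4 and 15 in NOP14, and 5 bases before it in RRP9, 10 in UTP20 and 31 in DDX21. The windows end 50 bases past the start, and these 8 were shown because they hold the motif. Closeness to the start is thus partly set by the window, and positions in other genes were not compared. DDX21 has a second annotated start further upstream, and the window of that start, chr10:68955920-68956219, holds no CACGTG. The stretch of NOP2 is cut short by the end of its window.

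The whole BYSL window, chr6:41921249-41921548 on the plus strand, is shown as the promoter context of a member that was higher with OGE in U2-OS and whose E-box lies past the start.
BYSL: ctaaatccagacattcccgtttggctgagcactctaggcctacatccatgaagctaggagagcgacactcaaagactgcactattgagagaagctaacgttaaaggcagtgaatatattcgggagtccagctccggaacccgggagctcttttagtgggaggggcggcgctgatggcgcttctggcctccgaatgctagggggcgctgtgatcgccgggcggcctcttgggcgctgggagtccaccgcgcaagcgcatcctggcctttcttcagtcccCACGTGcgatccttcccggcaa

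The 13 measured members with an E-box in the window had a median change of 0.19 in HOS and 0.15 in U2-OS, and the 14 with a window but no E-box had -0.30 and -0.02. By size, 4 of the 13 and 2 of the 14 were higher in U2-OS with OGE, NOB1 and NOP16 being the latter pair, and 0 and 2 were lower. The lines differed by medians of -0.66 and -0.58 without OGE. The split was made after the values had been seen and no test was run on it.

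Changes with OGE ran lower in longer genes, and among the members such a relation was seen in U2-OS but hardly in HOS. Gene span, from the RefSeq table, was known for all 34 measured members, with a median of 29.0 kb against 24.5 kb over all genes. Across members, the U2-OS change and the log2 span correlated at r = -0.40 (rho -0.29), or r = -0.29 without DDX10, the longest at 276 kb. In HOS r was 0.00 (rho -0.05). Over 9202 genes whose mean level reached the median, r was -0.24 in HOS and -0.32 in U2-OS. Of the 12 members under 20 kb, 4 were higher by size in U2-OS and 0 lower, with a median of 0.42. Over the 4163 genes of that span, 4.16% were higher and 2.64% lower, with a median of 0.14. Of the 9 members from 20 to 35 kb, 2 were higher and 1 lower, with a median of -0.19, against 2.52%, 8.02% and -0.06 over 1508 genes. Of the 13 members of 35 kb or more, 1 was higher and 1 lower, with a median of 0.10, against 1.67%, 13.5% and -0.24 over 3531 genes. The members' medians thus did not fall steadily with span. The points share arrays, and any part of span in the members' values was not tested.

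**Figure D5:**
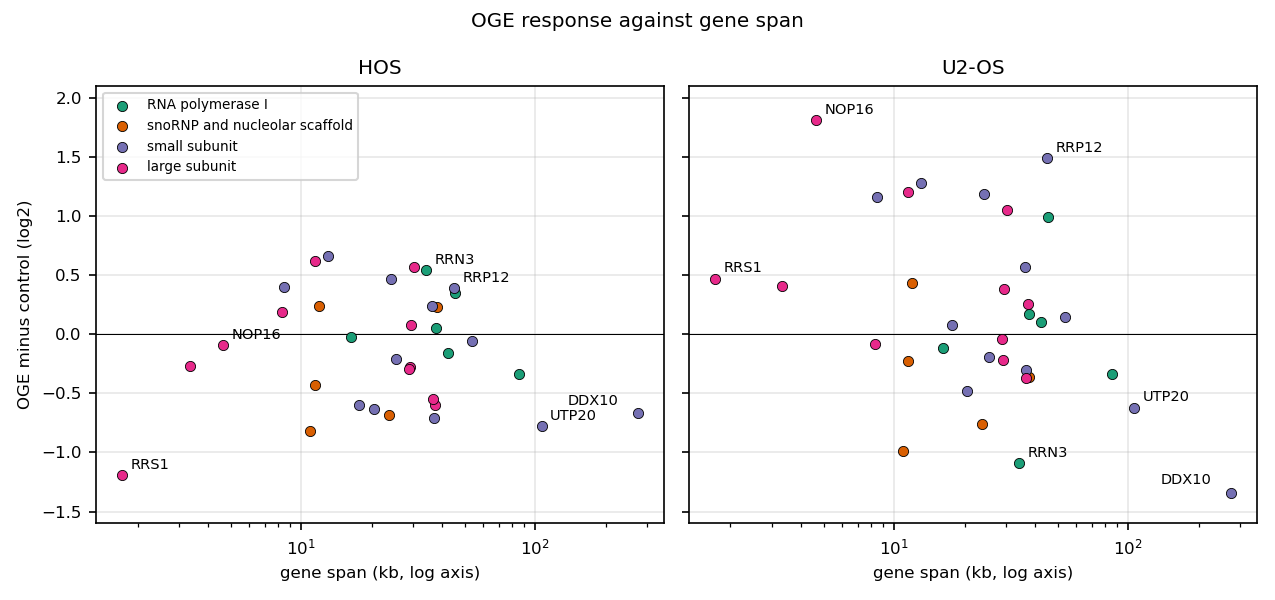
Change with OGE (log2, y axis) against gene span (kb, log axis) for the 34 members in HOS (left) and U2-OS (right), coloured by role. In U2-OS, DDX10 (276 kb) lies lowest at -1.34 and NOP16 (4.65 kb) highest at 1.81, while in HOS the shortest gene, RRS1, lies lowest at -1.19.

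Several members have small nucleolar RNA genes inside their span. Such RNAs are typically released from the introns of the host transcript. The measured ones had changes of 0.10 or more in both lines, while NCL, the host of 3 of them, had negative ones. Of all 18417 genes, 9555 had a positive change in HOS and 9705 in U2-OS. The RefSeq table places 23 small nucleolar RNA genes within 7 members, and 7 of the 23 have a probe set of their own. The table gives no strand, so the strand of these genes was not compared. SNORA75, inside NCL, was at 3.74 and 4.73 in HOS and 2.75 and 3.96 in U2-OS, changes of 0.99 and 1.21, while NCL had -0.82 and -0.99. SNORD82 and SNORD20, also inside NCL, had changes of 0.10 and 0.29 and of 0.19 and 0.61. SNORD57, inside NOP56, was at 7.10 and 8.27 in HOS and 6.24 and 7.60 in U2-OS and was higher by size in both lines. SNORA51, inside the same gene, had changes of 1.53 and 0.33. SNORD53, inside WDR43, had changes of 0.18 and 0.76, against -0.06 and 0.15 for WDR43. SNORD20 and SNORD105, the latter inside PPAN, were dim and under the floor in every comparison. SNORD105 was at 1.83 and 2.25 in HOS and 1.75 and 1.86 in U2-OS.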

How the data were processed

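The authors deposited log2 values. RMA is named, without a version, per the submitters' processing notes, and the log base was inferred, since values span 0.16 to 13.41. Per the labels' protocols, total RNA was amplified and labelled with biotin, 1 sample to an array. Precision is limited by there being only 4 arrays.

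Of 33297 probe sets, the platform annotation of 2016 gives 1 symbol for 19460, several for 1754 and none for 12083. Gene IDs matched the RefSeq table (GRCh38.p14) for 19429 of the 19460. Where several probe sets named a gene (769 of 18417 genes), that of highest mean was taken. Differences were called at 2-fold with a floor at the array median. The test across genes was limma 3.58.1 in R 4.3.3 on all genes, with cell line and OGE as terms and Benjamini-Hochberg adjustment at 0.05, and it was tested on simulated data. Alternatives were other thresholds and floors, quantile and cyclic loess normalization, means of probe sets and other limma settings.

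The members and lists were chosen with earlier results of these data known. Array values are given for members called by size in a line or between the lines in both states, and for up to 2 more per role with the largest mean change. Of other lists, up to 4 genes at or above the median level with the largest mean change are named, and of regulators MYC and those called in both lines. Promoter windows are RefSeq's. The RefSeq table holds no strand, so small nucleolar RNA genes were placed in members by span only.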

Additional observations from a re-analysis of the deposited data

Results flagged for a closer look

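Among the members given array by array, 4 had changes with OGE of opposite sign in the lines, with 1 array a group, and the difference was not tested. The U2-OS change minus the HOS change was -1.63 for RRN3, 1.90 for NOP16, 1.66 for RRS1 and -0.27 for MRTO4. For MRTO4 the changes themselves were 0.19 and -0.08.

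Probe sets listing several genes entered no comparison. The one listing NOP56 and SNORD56 was higher with OGE by 0.34 in HOS and by 0.70 in U2-OS. Of the 3 listing RRN3 with its pseudogenes, 2 were higher in U2-OS with OGE, by 0.63 and 0.67. The one listing PPAN with P2RY11 had changes of 0.36 and 0.41.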

How the results depend on the processing

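With 1 array a group, no replicate could be left out. The labels pair no samples by number, and the main limma fit compared OGE with control within lines. At 1.5-fold, 2 members were higher and 9 lower in HOS, 5 were lower in U2-OS, and 2 were higher and 4 lower in both lines. At 3-fold, 0 members were lower in HOS, in U2-OS 1 was higher and 0 lower, and between the lines 0 were lower in both treatment states. With a floor at the 75th percentile, 1 was lower in U2-OS. These shifts follow from the thresholds. For U2-OS against HOS, limma called 7 members after quantile normalization (1763 of all genes, against 354 as reported), 7 with trend and robust moderation (1309), 7 when dim genes were left out (749), 6 after cyclic loess (1326) and 0 without OGE as a term (131). The cause was not tested. The other 69 alternatives for counts and medians of the members, among them all 16 for medians, stayed within 1.5 times the count or within 0.145 of the median. For OGE, limma called 0 members in each alternative, with 264 of all genes called after quantile normalization, 1 with trend and robust moderation and 0 in the others. With OGE, the U2-OS minus HOS difference of BYSL moved from -0.57 to -0.38 (quantile) or -0.40 (cyclic loess). The HOS change of NPM1 was -0.32 as the mean of its probe sets. Its U2-OS change moved from -0.76 to -0.54 (quantile) or -0.55 (cyclic loess). Its U2-OS minus HOS difference with OGE moved from -0.98 to -0.79 or -0.75.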
